A study of Homo sapiens with 6 samples.

Results

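Matrix metalloproteinases (MMPs) are zinc-dependent endopeptidases that cut the proteins of the extracellular matrix and of the cell surface. Most are secreted as inactive proenzymes, a few are anchored in the membrane, and tissue inhibitors of metalloproteinases (TIMPs) block the active enzymes. In squamous epithelium and in carcinomas that arise from it they are known for opening the basement membrane and the collagen beneath it. The mRNA levels of 10 MMP genes were examined here in HSC-4 cells, an established human line of oral squamous cell carcinoma, with and without DAPT, an inhibitor of γ-secretase, which cuts Notch receptors inside the membrane and so lets their intracellular part reach the nucleus. The genes were *MMP1*, *MMP2*, *MMP3*, *MMP7*, *MMP9*, *MMP10*, *MMP12*, *MMP13*, *MMP14* and *MMP28*, taken by their current symbols from the 58884 genes counted in each library. They were picked from the 23 genes of the human MMP family with earlier results of these libraries known, so their differences between DAPT and control are given as a description. No p-value is printed for a member, and counts of members past a threshold describe the choice and are read as no test.

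The 3 DAPT libraries came from cells that received 50 μM DAPT for 24 h in growth medium. The 3 control libraries are labelled as controls, and the methods of the study describe them as cells given the vehicle DMSO for the same time. Their count columns carry the letters GM, which are not spelled out, while the deposited design text speaks of growth medium and names no DMSO. If no DMSO was added, an effect of the vehicle and that of DAPT cannot be told apart. Every library came from 1 cell line in bulk, so fewer cells of a type and less RNA per cell cannot be told apart. Nothing says whether the replicates were separate cultures, so the p-values measure only the spread between these libraries, which may be technical.

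Total counts lay between 12276313 and 16317672 reads per library. A signal of 3 reads was set as the floor and equals 0.184 to 0.244 per 1000000 total reads in these libraries, before TMM scaling. Elsewhere, CPM is the read count per 1000000 reads after TMM scaling. The Notch target *HEY1*, a check of the treatment, fell from 34.6 ± 1.77 to 8.75 ± 0.796 CPM (SD, n = 3 each). All 9 epithelial markers examined were read in all libraries, except that *KRT14* was at 0 reads in DAPT replicate 2, and their summed level was 5720 to 5916 CPM in control and 3634 to 3874 CPM in DAPT libraries. The markers went both ways, since *KRT5* was at 2635 to 2757 CPM in control and 1276 to 1362 CPM in DAPT libraries, whereas *EPCAM* was at 302 to 320 and 367 to 382 CPM and *CDH1* at 496 to 532 and 604 to 632 CPM. Control replicate 1 stood apart. Of 15 fibroblast markers, 11 were at least 2-fold higher there than in any other library. Summed over the list, the markers were at 1769 CPM in control replicate 1, at 1184 and 1197 CPM in the other controls and at 1126 to 1154 CPM in the DAPT libraries. The collagen genes *COL1A2* and *COL3A1* and the proteoglycan gene *DCN* together reached 266 CPM in control replicate 1 and between 0.260 and 2.31 CPM in the other 5 libraries. Among these, *COL3A1* was at 0 reads in DAPT replicates 1 and 2 and *DCN* in DAPT replicate 2. Of the leukocyte markers, *PTPRC* had at most 2 reads in any library, and the list of 9 summed to 12.5 to 15.2 CPM in control and 10.02 to 12.1 CPM in DAPT libraries, most of it *CD14*. The 7 endothelial markers summed to 1.33 to 1.93 CPM in control and 2.41 to 3.05 CPM in DAPT libraries. Of these, only *CDH5* was higher with DAPT without overlap, at 0.166 to 0.506 CPM in control and 1.39 to 2.34 CPM in DAPT libraries. *VWF* was at 0.828 to 1.31 and 0.585 to 1.02 CPM, and the rest had at most 3 reads in any library. The part of these shifts in the results was not tested.

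The RefSeq promoter table used here held 3 of the 10 members, and *MMP1*, *MMP2*, *MMP3*, *MMP9*, *MMP12*, *MMP13* and *MMP28* were not among them. The start regions of the 3 are set side by side, and they contrast a pair of genes in the MMP cluster on chromosome 11 with *MMP14*, which lies elsewhere and did not pass the test for a difference with DAPT. The sequences are from RefSeq (GRCh38.p14) and read 5′ to 3′ on the strand of the gene. They begin 120 bases before the RefSeq start site and end before any exon in the count files. Capitals mark the AP-1 motif TGAGTCA and the TATA box TATAAA. The windows are chr11:102780629-102780748 (minus strand) for *MMP10*, chr11:102530751-102530867 (minus strand) for *MMP7* and chr14:22836465-22836559 (plus strand) for *MMP14*.
MMP10: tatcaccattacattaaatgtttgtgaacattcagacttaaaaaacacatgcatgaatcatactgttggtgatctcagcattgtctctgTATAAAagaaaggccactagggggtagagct
MMP7: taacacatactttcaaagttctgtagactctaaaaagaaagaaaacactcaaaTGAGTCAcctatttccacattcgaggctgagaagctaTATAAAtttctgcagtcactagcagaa
MMP14: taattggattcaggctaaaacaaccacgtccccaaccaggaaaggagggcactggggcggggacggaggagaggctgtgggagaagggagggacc

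Both cluster genes held a TATA box close to the start, with its first base at position -31 in *MMP10* and -30 in *MMP7*, counted back from the base before the start site. *MMP7* also held an AP-1 motif from -67 to -61. Over the full 250 bases before the start, searched on both strands, *MMP14* held neither motif, nor the RBPJ core TGGGAA, the ETS motif AGGAAG or the E-box CACGTG. *MMP7* held the ETS motif at 2 places on the opposite strand and *MMP10* held none of these others. The promoter table held 12 of the 23 family genes. Among them, TATAAA also occurred in *MMP8* and *MMP20* of the cluster and in *MMP21* and *MMP26* outside it, but not in *MMP27* of the cluster. Among 27305 promoters of the same length, 4.16% held the AP-1 motif, 11.1% the TATA box, 21.1% the RBPJ core, 28.7% the ETS motif and 6.49% the E-box. A match describes letters only, and nothing was read from a missing one.

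On chromosome 11 of GRCh38, 9 genes of the family lie between 102520508 and 102955732, all on the minus strand, and 6 of them were members. These encode the collagenases *MMP1* and *MMP13*, the stromelysins *MMP3* and *MMP10*, matrilysin *MMP7* and macrophage elastase *MMP12*. In all 6, every DAPT library lay below every control library, which held for 22.7% of the 15001 genes tested. *MMP3* was not tested and is not among these genes. Its groups were parted by few reads, with 4 in DAPT replicate 1 (0.260 CPM) and 5 in control replicate 3 (0.414 CPM). Of the 5 cluster members tested, 5 had an adjusted p under 0.05 and were at least 2-fold lower in edgeR's quasi-likelihood test, where 18.0% of all tested genes were lower at this threshold and 1.77% were also at least 2-fold lower (0.600% were at least 2-fold higher). Of the 5, *MMP7* and *MMP12* passed the filter on low counts through their control libraries alone. Since this contrast was also known when the members were picked, nothing is read from the excess.

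*MMP1*, the interstitial collagenase that cuts fibrillar collagen, was the most abundant member in control cells. It lies from 102789919 to 102798160. Its level was 716, 678 and 634 CPM in control replicates 1, 2 and 3 and 156, 167 and 166 CPM in DAPT replicates 1, 2 and 3. The groups were far apart, and the spread within each was small beside the gap. *MMP1* was 4.15-fold lower with DAPT, a log2 fold change of -2.05 with a standard error of 0.05.

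*MMP10*, or stromelysin-2, cuts a wide range of matrix proteins and can activate other proMMPs. The gene, from 102770502 to 102780628, is the next one beside *MMP1*, with its promoter shown above. Control libraries held 125, 124 and 111 CPM and DAPT libraries 21.4, 23.3 and 23.1 CPM. All DAPT values again lay well below the controls. The log2 fold change was -2.42 (standard error 0.07), or 5.34-fold lower.

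*MMP13*, or collagenase-3, lies at the far end of the cluster from 102942995 to 102955732. Its 3 control values were nearly equal at 43.7, 42.5 and 43.2 CPM. With DAPT they were 11.6, 12.6 and 11.99 CPM. This was 3.58-fold lower, and the fitted log2 fold change was -1.84 (standard error 0.08). These 3 deeply read cluster genes thus had log2 fold changes between -2.42 and -1.84.

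The other 3 cluster members were near the limit of the depth, and counts are given for them. *MMP7* (102520508 to 102530750), a small protease without the hemopexin domain of its relatives, had 18, 17 and 16 reads in the control libraries and 3, 2 and 2 in the DAPT libraries. *MMP12* (102862736 to 102875034), which degrades elastin, had 18, 12 and 14 reads in control and 8, 2 and 1 with DAPT. *MMP3* (102835801 to 102843609), or stromelysin-1, had 20, 8 and 5 reads in control and 4, 0 and 1 with DAPT. In none of the 3 did the groups overlap once scaled for depth, while DAPT replicate 1 was the highest DAPT library for each.

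For these low genes the reads were summed per group and set in a ratio that allows for library size, with an exact 95% binomial interval that covers counting error only. The control level was 7.30 times the DAPT level for *MMP7* (interval 3.30 to 19.1), 4.01 times for *MMP12* (2.04 to 8.61) and 6.62 times for *MMP3* (2.57 to 21.7). The intervals were wide, and as the genes were picked with this contrast known they are given only for the counting error. *MMP7* and *MMP12* passed the filter on low counts through their control libraries alone, and *MMP3* did not pass it and was not tested. The fitted log2 fold change was -2.81 (standard error 0.45) for *MMP7* and -1.97 (standard error 0.49) for *MMP12*. That of *MMP12* was -3.12 (standard error 0.62) without DAPT replicate 1, -1.70 without DAPT replicate 2 and -1.59 without DAPT replicate 3. For *MMP3* the highest control value was that of replicate 1, the library with the fibroblast markers, and without it the ratio was 4.22 (1.41 to 15.1). The part of that library's fibroblast RNA in *MMP3* was not tested.

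**Figure D1:**
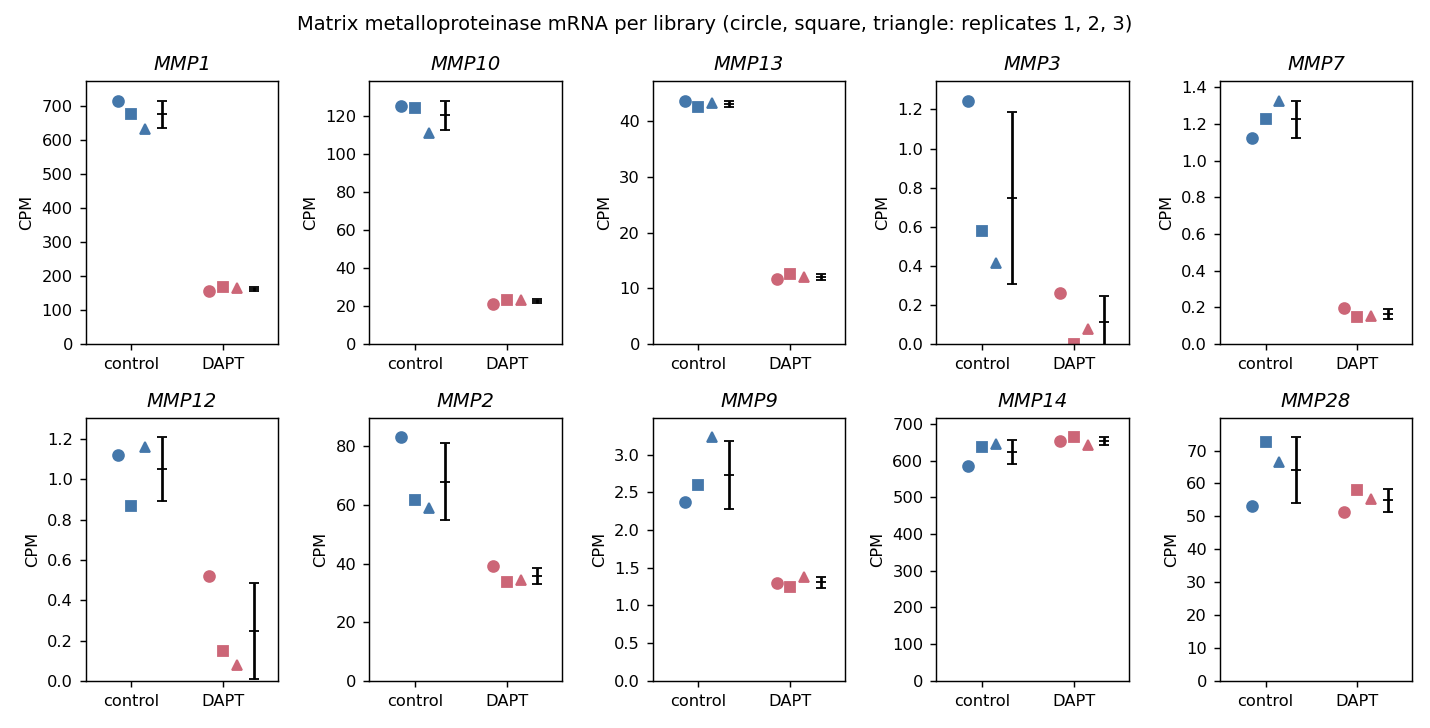
mRNA level of the 10 MMP genes in CPM (y axis, from 0, own scale for each gene) in the 3 control and 3 DAPT libraries (x axis). Each point is a library, with circles, squares and triangles for replicates 1, 2 and 3, and the black mark with bars is the mean ± SD. In *MMP1*, *MMP10*, *MMP13*, *MMP3*, *MMP7*, *MMP12*, *MMP2* and *MMP9* all DAPT points lie below all control points, and in *MMP14* and *MMP28* the groups overlap.

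Of the 4 members on other chromosomes, *MMP2* and *MMP9* had an adjusted p under 0.05 and were lower, and *MMP14* and *MMP28* did not pass. *MMP2* and *MMP9* are the gelatinases, which cut type IV collagen of the basement membrane and denatured collagen. *MMP14* is a membrane-anchored protease that activates proMMP2 at the cell surface, and *MMP28* is epilysin, a secreted member found in keratinocytes. Together with the cluster, 7 of the 9 tested members were lower and 0 were higher in edgeR's test, where 18.0% and 17.2% of all tested genes were (35.2% in either direction). As the members were picked with this contrast known, and *MMP7* and *MMP12* passed the filter through the controls alone, nothing is read from that difference in shares. At an unadjusted p under 0.05, 8 members were lower and 0 higher, beside 22.2% of all genes lower and 22.2% higher. DESeq2 called 7 lower and 0 higher, beside 14.5% and 12.0% of all genes. Without control replicate 1, edgeR called 8 lower and 0 higher, beside 19.1% and 18.0%.

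*MMP2* (chromosome 16, 55389700 to 55506691) was at 83.1, 61.6 and 59.1 CPM in control and at 39.1, 33.9 and 34.4 CPM with DAPT. Control replicate 1 was the highest library, and the remaining controls still lay above every DAPT library. The log2 fold change was -0.93 (standard error 0.14), or 1.90-fold lower. Without control replicate 1, where the fibroblast markers were high, it was -0.75 (standard error 0.07), or 1.68-fold lower. *MMP2* is itself strongly expressed in fibroblasts, as background, and how much of the surplus in that library came with the fibroblast RNA was not tested. Another gene covered 3.70% of its exonic bases on the same strand, where reads are left uncounted by the counting defaults.

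*MMP9* (chromosome 20, 46008908 to 46016561) was weakly expressed, with 38, 36 and 39 reads in the control libraries and 20, 17 and 18 in the DAPT libraries. In CPM these were 2.37, 2.60 and 3.23 in control and 1.30, 1.24 and 1.38 with DAPT. All DAPT values lay below the controls, and control replicate 1 was the lowest control. The fitted log2 fold change was -1.04 (standard error 0.24), or 2.06-fold lower. The ratio of summed reads was 2.06 (exact 95% interval 1.48 to 2.90), and 2.21 (1.54 to 3.20) without control replicate 1.

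*MMP14* (chromosome 14, 22836560 to 22849027) was at 585, 636 and 646 CPM in control and at 652, 664 and 642 CPM with DAPT. The groups overlapped, and control replicate 1 was the lowest library of all, although its fibroblast markers were the highest. The log2 fold change was 0.07 (standard error 0.05), and 0.03 (standard error 0.04) without that library. *MMP28* (chromosome 17, 35756249 to 35795707) was at 53.0, 72.5 and 66.6 CPM in control and at 51.2, 57.9 and 55.3 CPM with DAPT. Here control replicate 1 fell within the range of the DAPT libraries, and the log2 fold change was -0.22 (standard error 0.10). Without control replicate 1 it was -0.35 (standard error 0.06) and had an adjusted p under 0.05 in edgeR's test. With all 6 libraries *MMP28* was also called lower with the replicate block (log2 fold change -0.21) and without a filter on low counts (-0.22), so its call depended on these settings.

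**Figure D2:**
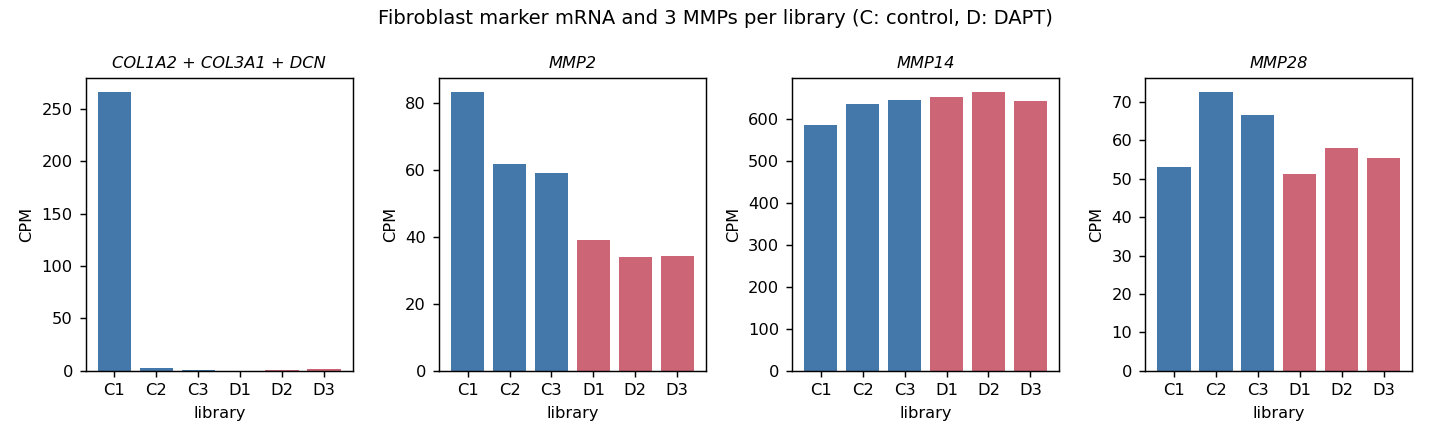
CPM (y axis, from 0) in each library (x axis, C1 to C3 control, D1 to D3 DAPT) for the sum of the fibroblast markers *COL1A2*, *COL3A1* and *DCN* and for *MMP2*, *MMP14* and *MMP28*. The marker sum is 266 CPM in C1 and at most 2.31 CPM elsewhere, *MMP2* is highest in C1 at 83.1 CPM, and *MMP14* is lowest in C1 at 585 CPM.

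The median log2 fold change was -2.05 over the 5 tested cluster members, with single genes from -2.81 to -1.84, and -0.57 over the 4 members elsewhere, with single genes from -1.04 to 0.07. The ranges did not overlap, but nothing is read from this, as the members were picked with this contrast known. The 5 tested family genes that were not members all lie outside the cluster. Their median was -0.13, with single genes from -0.93 to -0.01. Over all tested genes the median was 0.01. The cluster median includes *MMP7* and *MMP12*, which passed the filter through the controls, and the median of *MMP1*, *MMP10* and *MMP13* alone was also -2.05. When scaled by library size alone, the median of all genes moved to 0.06 and the calls over all genes from 18.0% lower and 17.2% higher to 14.4% and 23.0%, while the number of members called lower was again 7.

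**Figure D3:**
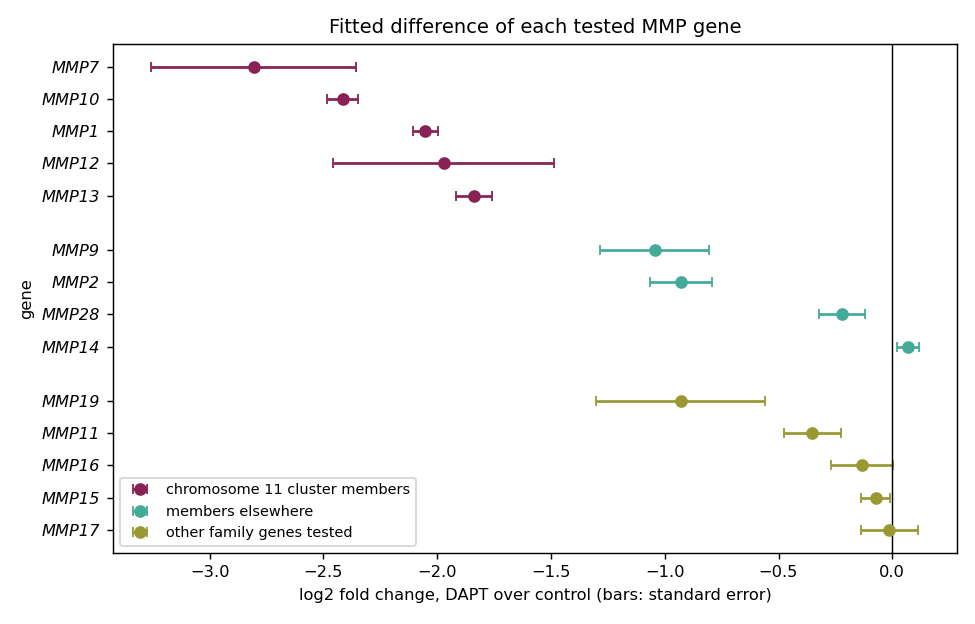
Fitted log2 fold change of DAPT over control (x axis) with its standard error (bars) for the tested genes of the family (y axis), coloured by group. Cluster members lie between -2.81 and -1.84, members elsewhere between -1.04 and 0.07 and other family genes between -0.93 and -0.01.

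In chromosome order, the fitted log2 fold changes of the tested cluster genes ran from *MMP7* (-2.81) over *MMP10* (-2.42), *MMP1* (-2.05) and *MMP12* (-1.97) to *MMP13* (-1.84). This order leaves out *MMP3*, which lies between *MMP1* and *MMP12* and was not tested. By summed reads its control level was 6.62 times the DAPT level (interval 2.57 to 21.7). The standard errors of *MMP7* and *MMP12* span their tested neighbours, whereas those of *MMP10*, *MMP1* and *MMP13* did not overlap one another. The differences between the genes were not tested. The 3 genes of the cluster that were not members were barely read, with 4 reads in all for *MMP8* and 0 reads in every library for *MMP20* and *MMP27*.

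Within 1 Mb on either side and inside it, 10 genes that are no MMPs were tested. Of these, 4 were lower, 1 was higher and 5 did not pass, beside 18.0% lower and 17.2% higher among all tested genes. Their median log2 fold change was -0.21, and single genes lay between -0.49 and 0.33. *BIRC3*, an inhibitor of apoptosis, was higher (0.33, adjusted p = 1.89e-04 in edgeR's test). *DYNC2H1*, a dynein heavy chain of cilia (-0.37), *DCUN1D5* (-0.27), *TMEM123* (-0.16) and *CFAP300* (-0.46) were lower. *YAP1*, the Hippo pathway coactivator, had a log2 fold change of 0.06, *BIRC2* of 0.03, *CEP126* of 0.20 and *TMEM123-DT*, with 11 to 21 reads per library, of -0.34 (standard error 0.32). The pseudogene *WTAPP1*, which spans *MMP10* and *MMP1* on the opposite strand and was counted by strand, had 28, 31 and 22 reads in control and 25, 15 and 18 with DAPT (log2 fold change -0.49, adjusted p = 0.153 in edgeR's test). None of the 10 neighbours reached the log2 fold change of any tested cluster MMP.

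**Figure D4:**
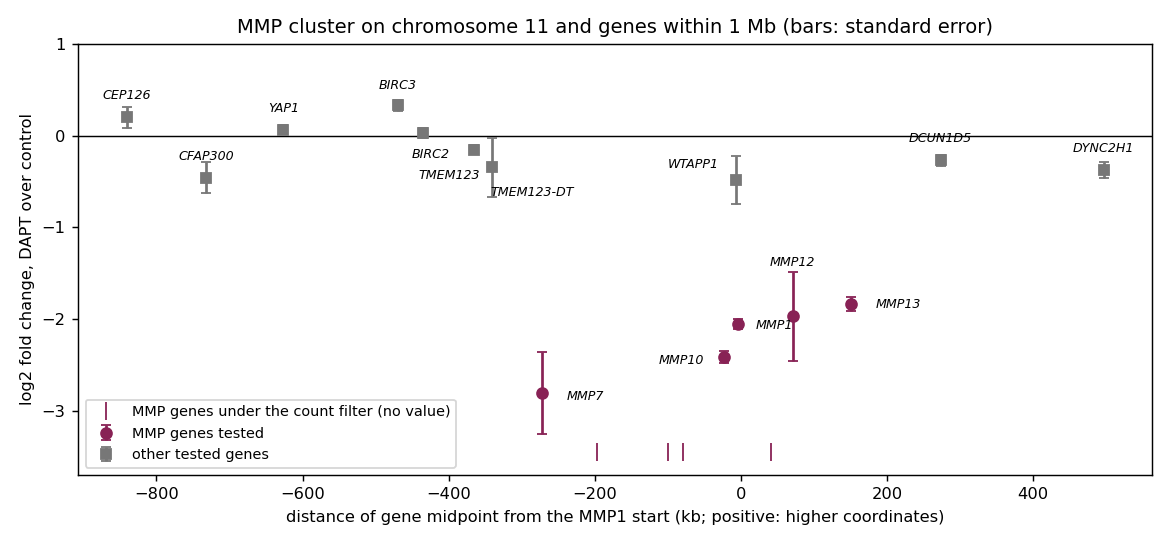
Log2 fold change of DAPT over control (y axis, bars are standard errors) against the distance of the gene's midpoint from the *MMP1* start in kb (x axis). Circles are tested MMP genes, squares are other tested genes within 1 Mb of the cluster, and ticks mark MMP genes under the count filter. The MMP genes lie at or below -1.84 and the other genes between -0.49 and 0.33.

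Levels of different genes were compared per length, as CPM per kilobase of exon. In control cells the order was *MMP1* (343 ± 20.8, SD, n = 3), *MMP14* (139.6 ± 7.30), *MMP10* (68.4 ± 4.47), *MMP28* (20.1 ± 3.14), *MMP13* (15.2 ± 0.200), *MMP2* (14.4 ± 2.81), *MMP9* (1.17 ± 0.191), *MMP12* (0.560 ± 0.0849), *MMP7* (0.528 ± 0.0440) and *MMP3* (0.402 ± 0.238). The libraries of *MMP13* and *MMP2* overlapped, as did those of *MMP12* and *MMP7* and of *MMP7* and *MMP3*. So these neighbours in the order did not differ beyond their spread. Genes further apart in the order overlapped as well. In control replicate 1, the library with the fibroblast markers, *MMP2* (17.7) lay above *MMP28* (16.6). *MMP12* and *MMP3* also overlapped. With DAPT, *MMP14* (146 ± 2.42) was first, followed by *MMP1* (82.8 ± 3.07), *MMP28* (17.2 ± 1.05), *MMP10* (12.9 ± 0.612), *MMP2* (7.61 ± 0.612) and *MMP13* (4.26 ± 0.169). *MMP1* and *MMP14* thus changed places, as did *MMP10* and *MMP28*, in each case without overlap of the libraries in either group. *MMP9* was at 0.560 ± 0.0301 CPM per kilobase with DAPT, and *MMP12*, *MMP7* and *MMP3* were at 0.132, 0.0711 and 0.0605, where neighbours overlapped.

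The ratio of *MMP1* to *MMP14* within a library does not depend on scaling between libraries. It was 2.77, 2.41 and 2.22 per length in control replicates 1, 2 and 3 and 0.542, 0.570 and 0.586 with DAPT. *MMP1* to *MMP10* was 5.10, 4.86 and 5.09 in control and 6.52, 6.39 and 6.42 with DAPT, so the stromelysin mRNA was reduced somewhat more than the collagenase mRNA in every DAPT library. *MMP1* to *MMP13* was 23.6, 22.9 and 21.1 in control and 19.3, 19.1 and 19.9 with DAPT.

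Summed over the 23 family genes per length, the chromosome 11 cluster made up 70.9%, 68.4% and 66.6% of the MMP mRNA in control replicates 1, 2 and 3 and 33.6%, 34.6% and 35.2% with DAPT. The remaining MMP mRNA was at 185, 199 and 201 CPM per kilobase in control and at 189.7, 194 and 188 CPM per kilobase with DAPT, with overlap between the groups. *MMP14* alone accounted for 20.6% to 24.0% of the family in control and for 49.7% to 51.2% with DAPT.

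Of the 13 family genes that were not members, 5 passed the count filter, and 3 had 0 reads in every library. *MMP11*, or stromelysin-3, was at 11.6 ± 1.58 CPM in control and 9.08 ± 1.03 CPM with DAPT (SD, n = 3 each), with overlap between the groups. Its log2 fold change of -0.35 had an adjusted p of 0.0317 in edgeR's test and of 0.0843 in DESeq2. *MMP15*, a second membrane-anchored enzyme, was at 60.3 ± 4.33 and 57.2 ± 0.810 CPM (log2 fold change -0.07). The membrane-type genes *MMP16* and *MMP17* had log2 fold changes of -0.13 and -0.01, with the sign of *MMP17* turning under scaling by library size alone, and *MMP19* had -0.93 (standard error 0.37, adjusted p = 0.0559 in edgeR's test). The 5 genes had a median log2 fold change of -0.13.

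Few reads of the members could be confused with another gene. Of the 75-base stretches in their GENCODE transcripts, *MMP3* and *MMP10* shared 22, which is 1.19% of those of *MMP3* and 1.27% of those of *MMP10*. *MMP2* shared 2.15% with another annotated gene, and the other 7 members shared 0.

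The 6 lists of genes that act with MMPs, written from general knowledge with earlier results known, were read in the same fit. In that fit 18.0% of all tested genes were lower and 17.2% higher. Of 6 inhibitors, 5 were tested and 0 were lower or higher in edgeR's test, also at an unadjusted p under 0.05, with a median log2 fold change of -0.02. *TIMP1* was at 118 ± 4.14 CPM in control and 112 ± 3.16 CPM with DAPT (log2 fold change -0.07), and *TIMP2* at 112 ± 9.46 and 111 ± 1.33 CPM (-0.02; SD, n = 3 each). DESeq2 called 1 inhibitor lower, as did edgeR without control replicate 1. In the latter it was *TIMP3*, named after its values were seen, with a log2 fold change of -0.49 (adjusted p = 2.16e-04) against -0.86 (adjusted p = 0.123) with all libraries.

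Of 6 tested activators of proMMPs, 3 were lower and 1 was higher, beside 18.0% and 17.2% of all tested genes. Their median log2 fold change was -0.20. *PLAT*, the tissue plasminogen activator, fell from 138 ± 3.53 to 69.8 ± 2.49 CPM (SD, n = 3 each; log2 fold change -0.98, adjusted p = 3.59e-12 in edgeR's test). *PLAU*, the urokinase that yields plasmin, rose from 387 ± 6.76 to 531 ± 23.4 CPM (0.46, adjusted p = 1.87e-07). *FURIN*, the convertase that cuts the prodomain of membrane-type MMPs, fell (-0.36, adjusted p = 1.41e-05 in the same test).

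Of 6 tested surface and secreted partners, 2 were lower and 1 was higher, beside 18.0% and 17.2% of all tested genes. The median log2 fold change of these partners was -0.11. *LCN2*, the lipocalin that binds MMP9, rose from 61.0 ± 3.75 to 107 ± 7.75 CPM (SD, n = 3 each; log2 fold change 0.81, adjusted p = 1.36e-09 in edgeR's test). *ITGA2*, a collagen receptor subunit, fell (-0.23, adjusted p = 0.00118), as did the hyaluronan receptor *CD44* (-0.15, adjusted p = 0.0198).

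Among 15 tested transcription factors known to act on MMP promoters, 4 were lower and 2 higher, beside 18.0% and 17.2% of all tested genes. The median log2 fold change of these factors was -0.06. *ETS1* fell from 119 ± 7.44 to 71.3 ± 6.24 CPM (SD, n = 3 each; log2 fold change -0.74, adjusted p = 1.5e-08 in edgeR's test) and *ETV4*, of the same ETS family, fell as well (-0.71, adjusted p = 8.21e-04). *ELF3*, an epithelial ETS factor, rose from 76.8 ± 5.21 to 118 ± 3.93 CPM (0.62, adjusted p = 2.72e-08). *FOSL1*, an AP-1 subunit, fell from 38.0 ± 5.06 to 27.1 ± 1.43 CPM (-0.48, adjusted p = 1.99e-04). The AP-1 subunits went both ways, since *JUND* rose from 38.8 ± 3.70 to 50.8 ± 4.25 CPM (0.39, adjusted p = 6.03e-04 in edgeR's test). *FOS*, *FOSL2*, *JUN* and *JUNB* were not called.

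Of 10 tested ligands that can induce MMPs, 2 were lower and 3 were higher (median log2 fold change 0.00). The chemokine gene *CXCL8* fell from 32.7 ± 1.80 to 13.6 ± 0.790 CPM (SD, n = 3 each; log2 fold change -1.26, adjusted p = 8.52e-11 in edgeR's test) and *IL1B* fell (-0.45, adjusted p = 3.59e-05), while *IL6* rose (0.51, adjusted p = 0.0014). Of 12 tested MMP substrates, 3 were lower and 2 were higher (median log2 fold change -0.07). These included *COL7A1*, the anchoring fibril collagen (-0.42, adjusted p = 3.46e-07), *TNC*, tenascin-C (-0.34, adjusted p = 2.8e-05), and *COL4A1* of the basement membrane (-0.28, adjusted p = 2.77e-04). Without control replicate 1, 5 substrates were lower and 2 higher. Across the lists, the shares over all tested genes were 18.0% lower and 17.2% higher in edgeR with all libraries. They were 19.1% and 18.0% without control replicate 1, and 14.5% and 12.0% in DESeq2.

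The genes most like *MMP1* were sought among 10140 tested genes with a mean of at least 10 CPM, by the distance between log2 profiles over the 6 libraries, each centred on its own mean. The 5 nearest were *CYP24A1* (distance 0.163), which inactivates vitamin D, *FABP5* (0.203), a fatty acid binding protein, *MMP13* (0.331), *KRT13* (0.349), a keratin of mucosal epithelium, and *HEY1* (0.365). For *MMP10* they were *CXCL14* (0.205), *SERPINB3* (0.312), *MMP1* (0.420), *CYP24A1* (0.490) and *FABP5* (0.563). *SERPINB3* has a close paralog, *SERPINB4*, so its reads are uncertain. All of these genes were lower in DAPT libraries, and the distance counts that gap together with the spread within groups.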

How the data were processed

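HSC-4 libraries (3 DAPT, 3 control) were grouped by their titles. The authors used Trim Galore on single-end reads and HISAT2 with GRCh38 for mapping. Per the file headers, featureCounts 1.6.3 then counted sense-strand reads in exons of Ensembl release 96; the labels' notes name HTSeq and DESeq2 instead. Raw counts were deposited without pooling. By the counting defaults, reads with several places or genes were not counted, which lowers genes with close copies. Symbols came from GENCODE identifiers (58472 of 58884 matched).

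Both groups were compared by a robust quasi-likelihood F test (edgeR 4.0.16, R 4.3.3) after TMM scaling. Genes of low count were first left out by filterByExpr (minimum count 10), and p-values of the 15001 remaining genes were adjusted by Benjamini and Hochberg. A gene was called at an adjusted p under 0.05. Standard errors were derived from the F statistic. The procedure was tested on simulated data. Between 12276313 and 16317672 reads per library limit precision for low genes. No 2 replicates agreed within sampling noise (chi-square per degree of freedom 1.58 to 5.38).

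Members and lists were chosen with earlier results of these data known. Named are all members, tested relatives and cluster neighbours, the 3 largest called changes per list with *TIMP1*, *TIMP2*, *PLAU* and *FOSL1*, and the 5 genes most like *MMP1* and *MMP10*. The other AP-1 subunits tested were named after their values were seen. Alternatives were DESeq2 1.42.0, RLE and library-size scaling, other filters, a 2-fold limit, the replicate block and leaving out each library.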

Additional observations from a re-analysis of the deposited data

How the results depend on the processing

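Over the alternatives, 5 to 9 members were called lower and 0 higher. There were 5 at a minimum of 10 counts in every library, where the low genes drop out, and 9 without a filter. Leaving out each library gave 7 to 8. Over all genes, in either direction, 5185 of 13961 were called at that minimum and 5170 of 29228 without a filter. With a library left out the calls ran from 4174 of 15330 to 5618 of 15162. As the members were picked with this contrast known, nothing is read from these counts. The median log2 fold change of the cluster was -2.005 with scaling by library size alone, -2.23 without a filter and between -2.37 and -2.01 with a library left out. That of the members elsewhere was -0.53 with library-size scaling and between -0.59 and -0.55 with a library left out. With a 2-fold limit, 6 members were lower. With the same limit, 1 gene of the partner lists was lower and 0 were higher, against 14 and 9 without it. Over all tested genes, 1.77% were lower and 0.600% higher with the limit, and 18.0% and 17.2% without it. Leaving out a library gave 12 to 19 genes of the lists lower and 7 to 9 higher. The 19 came without control replicate 1, where 19.1% of all genes were lower. Nothing is read from these counts. The log2 fold change of *MMP17* was 0.0332 with library-size scaling, 0.0694 without DAPT replicate 1 and lay between -0.0861 and 0.0765 with a library left out. *MMP11* lost its call with DESeq2, with library-size scaling and without control replicates 2 or 3 or DAPT replicates 1 or 3. *MMP28* gained one without control replicate 1, without a filter and with the replicate block. *MMP19* gained one without control replicate 3 (log2 fold change -1.19). The causes were not tested.

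Same-numbered libraries shared only a number, with correlations of their deviations from the group means between -0.0193 and 0.0376, and control replicate 3 and DAPT replicates 1 and 3 correlated best with another number. The replicate block gave 5295 calls over all genes against 5281, 8 members lower against 7, and cluster and elsewhere medians of -2.05 and -0.57. Depth limits *MMP3*, *MMP7*, *MMP9* and *MMP12*, which had at most 39 reads in any library.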
